A study of Solanum lycopersicum with 18 samples.

Results

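The genes described here are those whose RNA rose in fruits of the rin tomato mutant between the ages labelled 35 and 45 DAP and changed little in the wild type. They number 43 of the 35802 gene identifiers measured. They were chosen on levels in RPKM, reads divided by gene length and by the read total of the library. R stands for the ratio of the 2 ages in a genotype, (mean at 45 DAP + 1)/(mean at 35 DAP + 1). A member has a mean of at least 10 RPKM in rin at 45 DAP, an R of at least 4 in rin, an R between 0.67 and 1.5 in the wild type, and an R of at most 1.5 in TF18.

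The 18 RNA-seq libraries of sliced fruit cover 3 genotypes, each at 2 ages and with 3 libraries per group. AC is the wild-type cultivar Ailsa Craig, and rin is the ripening mutant, line LA3754, in the Ailsa Craig background. TF18 is a single transgenic line of Ailsa Craig in which FUL1 and FUL2 are suppressed, and the labels give neither its construct nor its promoter. All plants grew in a glasshouse, and the labels call the 35 DAP groups Green and the 45 DAP groups Pink in every genotype. The labels do not say whether each library of a group had its own plant, so p-values measure only library-to-library spread, part of which may be technical.

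The MADS-box transcription factors RIN, FUL1 and FUL2 switch on ripening genes in tomato. Wild-type fruit passes from green to red through changes in colour, cell walls, aroma and the hormone ethylene. Fruit that carries the rin mutation grows to full size and does not ripen normally, and FUL1 and FUL2 act together with RIN in complexes on the promoters of ripening genes.

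The RefSeq table at hand (assembly SLM_r2.1) pairs none of the Solyc identifiers with a name (0 of 35802), so no gene name, function or sequence can be given for any member. For the same reason the tissue could not be checked by marker genes, and the levels of RIN, FUL1 and FUL2 are not analysed here. Read totals ran from 5740900 to 17334324 per library, lowest in the wild type at 45 DAP. In bulk fruit tissue, fewer cells of a type and less RNA per cell cannot be told apart.

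The steps of the rule show where the members stand among the rises of the mutant. Of 11298 genes with at least 10 RPKM in rin at 45 DAP, 487 had an R(rin) of at least 4. Most of these moved the same way in the wild type, where 326 had an R above 1.5 and 196 had an R of 4 or more. Another 50 had a wild-type R below 0.67, and 111 lay between the bounds. Of these 111, 68 had an R above 1.5 in TF18 (median R(TF18) 2.69) and were left out, which leaves the 43. With the wild type and rin exchanged, the same rule finds 74 genes in the values as deposited.

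Over the 43 members R(rin) ran from 4.03 to 16.1 with a median of 6.33, and 12 members reached 10 or more. The medians of R were 1.11 in the wild type and 1.14 in TF18. Levels in rin at 45 DAP spanned 10.2 to 7674 RPKM around a median of 38.9. The median level of the members was 6.65 RPKM in AC-Green, 7.73 in AC-Pink, 4.16 in rin-Green, 8.94 in TF18-Green and 8.55 in TF18-Pink. These values chose the members and are given as a description.

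The calls in the contrasts that the rule used are set here beside those of all 20658 genes tested, and nothing is read from them. A gene was called by limma at a Benjamini-Hochberg adjusted p under 0.05 where its log2 fold change was also 1 or more in size. In rin, 38 of the 42 members tested were called higher at 45 than at 35 DAP (all genes: 7.49%) and 0 lower (all genes: 8.84%). Between the ages of the wild type 0 members were called, where 7.54% of all genes were higher and 34.2% lower. Between the ages of TF18 0 members were called either, where 0.566% of all genes were higher and 0.145% lower. At 45 DAP, 35 members were called higher in rin than in AC (all genes: 25.9%) and 0 lower (all genes: 3.42%). Against TF18 of that age, 33 were higher in rin (all genes: 5.16%) and 0 lower (all genes: 12.3%).

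**Figure D1:**
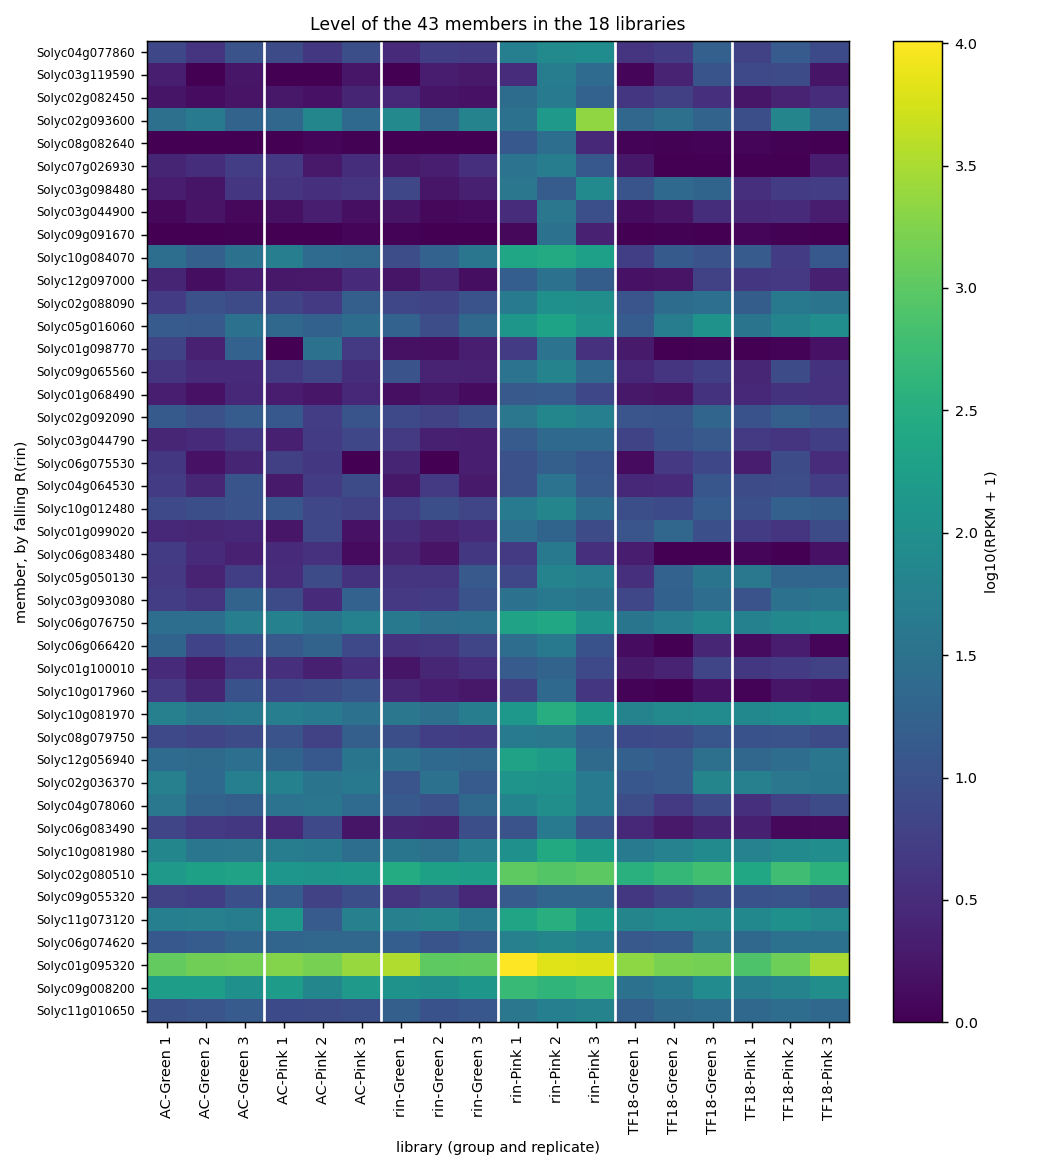
Level of each of the 43 members (rows, by falling R(rin)) in each of the 18 libraries (columns, by group and replicate), as log10(RPKM + 1). The 3 rin-Pink columns are the brightest in most rows, and rows such as Solyc02g093600 and Solyc09g091670 are bright in 1 rin-Pink library only.

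The clearest rises were those in which all 3 rin-Pink libraries lay above the other 15. That was so for 27 of the 42 tested members, against 3.52% of all genes tested, and again the rule favours it. Solyc04g077860 had the largest R(rin) of them, 16.1. It was at 52.2, 77.7 and 88.0 RPKM in the 3 rin-Pink libraries, a mean of 72.6 ± 18.4 (SD, n = 3), and between 2.11 and 4.63 RPKM in rin-Green. The wild-type libraries held 6.31, 2.96 and 9.50 RPKM at 35 DAP and 7.14, 3.47 and 8.04 RPKM at 45 DAP. TF18 held 2.96, 4.23 and 16.0 RPKM at 35 DAP and 5.24, 13.3 and 7.06 RPKM at 45 DAP. The 15 other libraries thus overlap each other, and the lowest rin-Pink library stands more than 3 times above the highest of them.

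Solyc02g082450 followed with an R(rin) of 15.2 from a much lower base. Its rin-Pink libraries held 25.1, 46.3 and 17.3 RPKM, and its rin-Green libraries 1.79, 0.66 and 0.59 RPKM. In the wild type it stayed between 0.34 and 1.56 RPKM at both ages. TF18 fell between these levels at 35 DAP, with 3.31, 4.69 and 2.58 RPKM, and stood at 0.74, 1.54 and 2.21 RPKM at 45 DAP.

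The most abundant member was Solyc01g095320, with 10223, 6451 and 6347 RPKM in rin-Pink. One rin-Green library was already high, at 3389 RPKM, while the other two were at 1019 and 1074 RPKM. The wild type held 1128 to 1459 RPKM at 35 DAP and 1512 to 2422 RPKM at 45 DAP. TF18-Pink ran from 778 to 3126 RPKM and TF18-Green from 1498 to 2106 RPKM. No library outside rin-Pink reached the rin-Pink range, but the rin-Green spread is wide (1827 ± 1352 RPKM, SD, n = 3). Solyc02g080510 came next, with a narrow rin-Pink range of 853 to 1045 RPKM. It was at 169 to 296 RPKM in rin-Green and had lower levels in the wild type, 141 to 203 RPKM at 35 DAP and 117 to 130 RPKM at 45 DAP.

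Summed over the members, the 3 rin-Pink libraries held 11113 to 13857 RPKM, and the other 15 held 1646 to 4388 RPKM. Without Solyc01g095320 the sums were 3635 to 5470 RPKM in rin-Pink and 627 to 1573 RPKM elsewhere. The 5470 RPKM of rin-Pink replicate 3 include 2192 RPKM of Solyc02g093600 alone. Outside rin-Pink the highest library in the second sum was TF18-Green replicate 3. The rule favours the separation of rin-Pink in both sums.

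**Figure D2:**
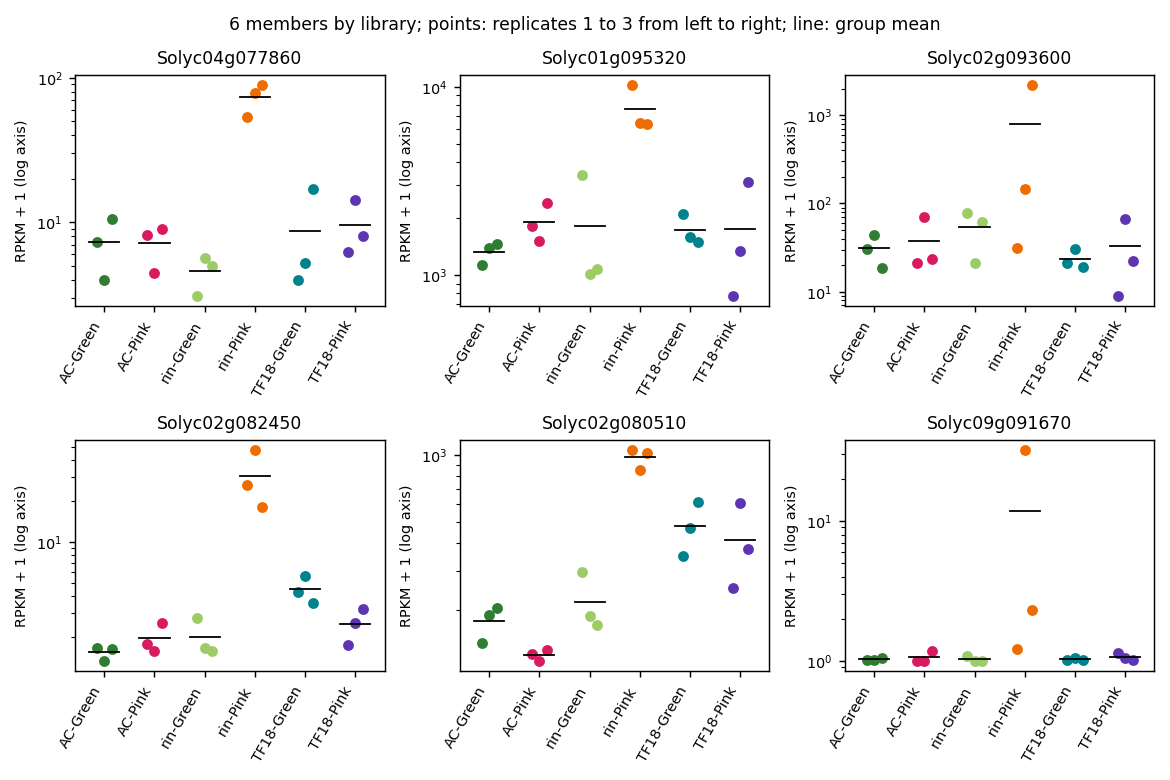
RPKM + 1 on log axes for 6 members in the 18 libraries (points, replicates 1 to 3 from left to right; lines, group means, n = 3). In the left and middle columns all 3 rin-Pink points lie above the other 15, and in the right column a single rin-Pink library carries most of the mean.

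The 3 rin-Pink libraries did not contribute alike. Replicate 2 was the highest for 31 of the 43 members, replicate 1 for 7 and replicate 3 for 5. Among all genes of at least 10 RPKM in rin-Pink, replicate 2 was the highest for only 26.8%, but among the other 444 genes with an R(rin) of at least 4 it was so for 64.6%. The lead of replicate 2 is thus shared with the rises of rin in general. A single library held over 50% of the rin-Pink sum in 21 members (48.8%), close to the 48.0% of the other 444 genes that rose and above the 9.75% of all genes of that level. It held over 75% in 5 members (11.6%), beside 14.4% of the other rises and 1.64% of all genes.

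Those 5 members are named here after their values were seen. Solyc09g091670 had 31.0 RPKM in replicate 2 against 0.21 and 1.33 RPKM in replicates 1 and 3, which is 95.3% of the sum in 1 library. Its other 15 libraries held at most 0.18 RPKM, and it was the member that failed the filter for testing (1 RPKM in 3 libraries). Solyc02g093600 had 2192 RPKM in replicate 3, or 92.6% of the sum, against 30.7 and 146 RPKM in replicates 1 and 2. Its replicate 1 lay within its rin-Green range of 19.9 to 76.7 RPKM. The remaining members of this kind, Solyc06g083480, Solyc01g098770 and Solyc03g044900, were each highest in replicate 2, at 40.9, 32.5 and 37.5 RPKM. Their R(rin) rests mainly on that library. All 3 rin-Pink libraries lay above the 3 rin-Green ones in 38 of the 42 tested members (all genes: 25.1%), as the rule favours. In the other 4 they overlapped, namely Solyc02g093600, Solyc05g050130, Solyc06g083480 and Solyc12g056940. The last held 201, 156 and 23.4 RPKM in rin-Pink and 20.3 to 31.2 RPKM in rin-Green, so that its replicate 3 had not left the earlier range.

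**Figure D3:**
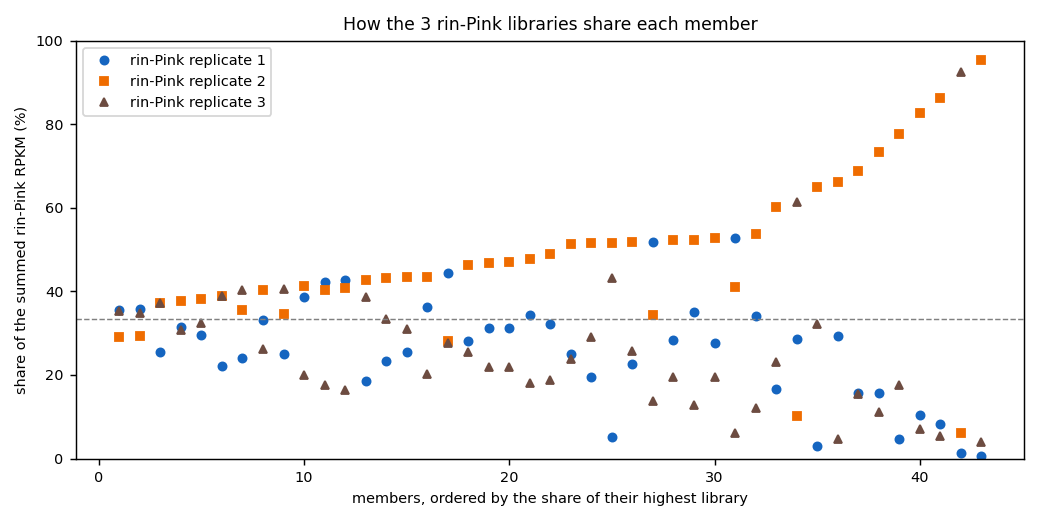
Share of each member's summed rin-Pink RPKM (in percent) held by each of the 3 rin-Pink libraries, with the members ordered by their highest share (35.5% to 95.3%). The dashed line marks equal shares, and the squares of replicate 2 form most of the upper edge.

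In the wild type the members ranged from nearly silent to abundant. Means were below 1 RPKM at both ages for 5 members, namely Solyc02g082450, Solyc03g044900, Solyc03g119590, Solyc08g082640 and Solyc09g091670, which are named after their values were seen. In these 5 the 1 RPKM added in R exceeds both wild-type means and holds R(AC) near 1, so R(AC) says little about a level course. Solyc03g044900 had means of 0.345 and 0.709 RPKM with an R(AC) of 1.27. Solyc03g119590 had 0.660 and 0.252 RPKM with an R(AC) of 0.754. Solyc08g082640 had 1 read in the 3 AC-Green libraries, 3 reads in AC-Pink and 2 reads in rin-Green. In rin-Pink it had 11.9, 26.8 and 1.87 RPKM. At the other end, 15 members had wild-type means of 10 RPKM or more at both ages. Of these, Solyc01g095320, Solyc02g080510 and Solyc09g008200 (named after their values were seen) had 100 RPKM or more. Solyc09g008200 held 102 to 177 RPKM in AC-Green, 68.1 to 159 RPKM in AC-Pink, 99.0 to 133 RPKM in rin-Green and 415 to 506 RPKM in rin-Pink. In TF18 it was lower, at 31.3 to 85.3 RPKM in TF18-Green, a log2 fold change of -1.57 ± 0.37 (SE; adjusted p = 0.016 by limma), and at 48.4 to 94.5 RPKM in TF18-Pink, where it was not called. The call at 35 DAP was lost without AC-Green replicate 1 or 2 or TF18-Green replicate 1 or 2 (limma adjusted p 0.056 to 0.076).

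Set against the wild type at 45 DAP, the (mean + 1) ratio of rin-Pink to AC-Pink had a median of 5.33 and was at least 4 for 29 members. For 4 members it was under 2. These were Solyc01g098770, Solyc06g066420, Solyc09g055320 and Solyc10g017960 (named after their values were seen), whose rin-Green means were 0.187 to 0.592 times those of AC-Green on the same scale. In Solyc10g017960 rin went from 1.65, 1.13 and 0.81 RPKM to 4.81, 22.5 and 3.38 RPKM, while the wild type held 1.56 to 9.28 RPKM at 35 DAP and 6.53 to 9.52 RPKM at 45 DAP. In all 4 the rin-Pink and AC-Pink libraries overlapped, and the rin-Green mean was below both wild-type means.

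Whether rin differed from the wild type at the earlier age was tested at 35 DAP. No member was called in either direction by limma (0 of 42), where 0.0581% of all genes were called higher and 0.0339% lower, and 4 of the 42 members had an unadjusted limma p under 0.05, beside 527 of all 20658 genes. All 4 were lower in rin, the direction that the rule favours. The median log2 fold change of the members was -0.23 against -0.06 over all genes. The rule favours low rin-Green values through R(rin), so a lower median and these p-values are partly fixed by the choice.

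The rule sets no ratio between TF18 and the wild type at a given age, and these were compared at each age. Its bounds on R(AC) and R(TF18) do limit how far that ratio can rise between the ages. A gene that falls strongly in the wild type and not in TF18 gains in the ratio, and such genes are left out. The shares and medians of the members at 45 DAP are therefore partly set by the selection. At 45 DAP, 6 members were called higher in TF18 (all genes tested: 40.3%) and 5 lower (all genes: 6.19%). The median log2 fold change was 0.41 for the members and 0.75 for all genes. That shift of all genes depends on the scaling, and TMM-type scaling (by a trimmed mean of log ratios between libraries) gave 0.11 and quantile normalization 0.04. On these scales 0 and 1 members were higher (all genes: 23.3% and 17.6%), and 8 and 9 were lower (all genes: 17.8% and 12.9%). Without TF18-Pink replicate 2, 3 members were lower (all genes: 5.83% to 6.38% over the settings that leave out 1 library).

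At 35 DAP, TF18 exceeded AC in 5 members called (all genes: 2.71%) and was below it in 4 (all genes: 4.38%), with medians of 0.28 for the members and 0.13 for all genes. These shares of the members were above those of all genes at 35 DAP in both directions, and below that of the higher calls at 45 DAP. For the higher calls the rule has a part at both ages. R(TF18) is at most 1.5 and has no lower bound. Genes with TF18-Green values low for their TF18-Pink level are left out, and those with high TF18-Green values are kept. Of the 5 members with the lowest R(TF18), 4 were called higher at 35 DAP. At 45 DAP the bounds on R(AC) and R(TF18) work against higher calls. Nothing is read from the higher calls against all genes. Single libraries moved the counts at 35 DAP. Without AC-Green replicate 1 they were 3 higher and 1 lower, without AC-Green replicate 2 they were 2 and 3, without TF18-Green replicate 1 they were 8 and 3, and without TF18-Green replicate 2 they were 2 and 1. With every 1 of the 18 libraries left out in turn, the shares over all genes ran from 1.30% to 3.44% higher and from 1.95% to 5.18% lower. Over both ages 10 of the 42 members were called higher at one age or the other (all genes: 41%) and 6 lower (all genes: 9.95%). None was called in opposite directions (all genes: 1.22%), and 26 were called at neither age (all genes: 50.2%). The bounds on R(AC) and R(TF18) leave little room for a gene to go from lower at 35 DAP to higher at 45 DAP. Nothing is read from the lack of opposite calls.

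Solyc06g066420 had the largest difference among the members called lower in TF18, at both ages. It held 18.7, 5.39 and 9.18 RPKM in AC-Green and 0.38, 0.00 and 1.68 RPKM in TF18-Green. At 45 DAP it held 12.2, 17.8 and 6.59 RPKM in the wild type and 0.29, 1.07 and 0.14 RPKM in TF18. The groups do not overlap at either age. Its log2 fold change was -2.81 ± 0.54 (SE; adjusted p = 0.0052 by limma) at 35 DAP and -3.09 ± 0.54 (SE; adjusted p = 0.00016 by limma) at 45 DAP, and both calls held under all 27 alternatives. In rin the same gene went from 2.80, 2.99 and 5.97 RPKM to 25.8, 40.7 and 9.16 RPKM.

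Solyc10g017960 was also low in TF18, at 0.08, 0.00 and 0.60 RPKM at 35 DAP and 0.09, 0.75 and 0.60 RPKM at 45 DAP. Its log2 fold change against the wild type was -2.05 ± 0.54 (SE; adjusted p = 0.026 by limma) at 35 DAP and -2.58 ± 0.54 (SE; adjusted p = 0.00069 by limma) at 45 DAP. The call at 35 DAP was lost without AC-Green replicate 1 or 3 and without TF18-Green replicate 1 or 2, with limma adjusted p from 0.061 to 0.11. Solyc04g078060 was the third member called lower at both ages (chosen after its values were seen). It held 15.2 to 39.6 RPKM in AC-Green, 24.6 to 36.7 RPKM in AC-Pink and 2.57 to 7.91 RPKM over all 6 TF18 libraries. Its log2 fold change was -1.71 ± 0.42 (SE; adjusted p = 0.018 by limma) at 35 DAP, lost without AC-Green replicate 1 (adjusted p = 0.098) or TF18-Green replicate 2 (adjusted p = 0.099). At 45 DAP it was -2.50 ± 0.42 (SE; adjusted p = 9.6e-05 by limma).

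On the higher side Solyc02g080510 was called at both ages. TF18 held 350, 469 and 613 RPKM at 35 DAP and 250, 605 and 375 RPKM at 45 DAP, and each of these libraries was above all 6 wild-type ones. The log2 fold change was 1.40 ± 0.29 (SE; adjusted p = 0.0077 by limma) at 35 DAP and 1.62 ± 0.29 (SE; adjusted p = 0.00018 by limma) at 45 DAP, with 0.75 at 45 DAP under TMM-type scaling, which is below the size asked of a call. Among the members called higher at 45 DAP, Solyc05g050130 and Solyc02g088090 had the largest differences. Solyc05g050130 held 39.2, 19.2 and 19.3 RPKM in TF18-Pink against 2.18, 7.33 and 2.88 RPKM in AC-Pink, a log2 fold change of 2.44 ± 0.85 (SE; adjusted p = 0.020 by limma). The call was lost without AC-Pink replicate 1 or 3 or TF18-Pink replicate 1 (limma adjusted p 0.053 to 0.072). In rin-Pink the same gene held 6.17, 60.8 and 50.9 RPKM, which overlaps TF18-Pink, and its rise in rin was not called. Solyc02g088090 held 14.3, 40.1 and 33.7 RPKM in TF18-Pink against 5.61, 3.83 and 15.6 RPKM in AC-Pink. These libraries overlapped, and the log2 fold change was 1.79 ± 0.51 (SE, limma adjusted p = 0.0059). With TMM-type scaling neither was called (limma adjusted p = 0.1 for each). With quantile normalization neither was called either (limma adjusted p = 0.2 for Solyc05g050130 and 0.16 for Solyc02g088090).

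**Figure D4:**
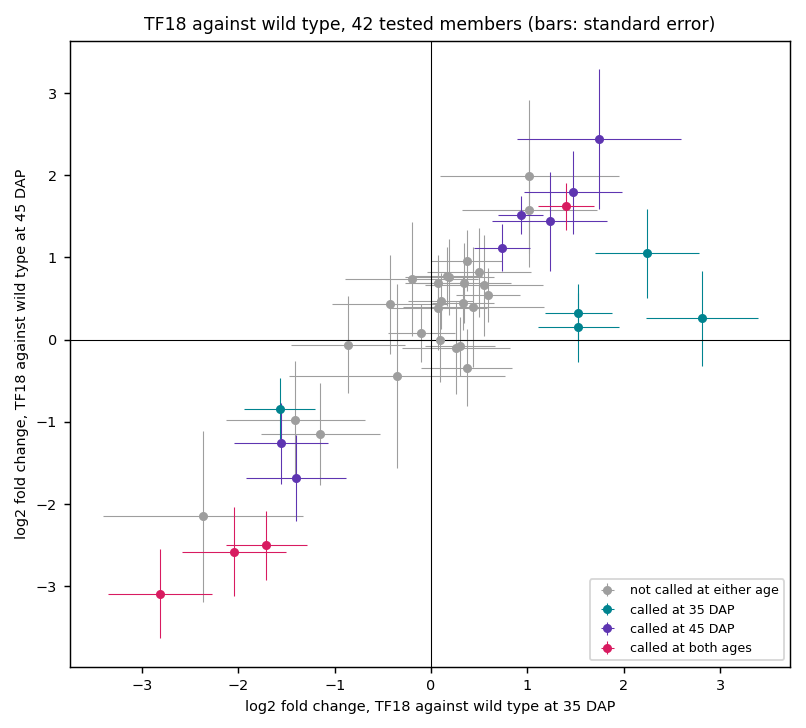
Log2 fold change of TF18 against the wild type at 35 DAP (horizontal) and at 45 DAP (vertical) for the 42 tested members, with bars of 1 standard error, on log2(RPKM + 1). The 3 members called lower at both ages sit at the lower left, and 4 members called higher at 35 DAP alone sit at the right near or below 1 on the vertical axis.

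A few members were higher in 35 DAP fruit of TF18 as well as in 45 DAP fruit of rin. R(TF18) was below 0.67 for 5 members, and 4 of these were called higher in TF18-Green than in AC-Green, against 1 of the other tested members. A low R(TF18) favours a high TF18-Green value, so this is a description. Solyc03g098480 had the lowest R(TF18), 0.264. It held 9.93, 22.1 and 18.5 RPKM in TF18-Green and 2.62, 4.07 and 4.43 RPKM in TF18-Pink, and 0.67 to 3.27 RPKM over the 6 wild-type libraries. Against the wild type at 35 DAP its log2 fold change was 2.81 ± 0.58 (SE; adjusted p = 0.0079 by limma). In rin it went from 6.02, 0.76 and 1.22 RPKM to 38.1, 13.5 and 81.9 RPKM, so that the lowest rin-Pink library lay within the TF18-Green range.

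Solyc01g099020 had the second lowest R(TF18), 0.423. TF18-Green held 10.4, 19.9 and 8.56 RPKM against 1.87, 1.72 and 1.77 RPKM in AC-Green, a log2 fold change of 2.24 ± 0.54 (SE; adjusted p = 0.017 by limma). The call was lost without AC-Green replicate 1 or 2 or TF18-Green replicate 2 (adjusted p 0.051 to 0.093). In rin-Pink its libraries, at 27.7, 18.3 and 7.35 RPKM, overlapped those of TF18-Green. The other 2 members called higher there, Solyc02g082450 and Solyc03g044790, had log2 fold changes of 1.53 each (SE 0.35 and 0.42, limma adjusted p = 0.013 and 0.033), and were named after their values were seen. Each lost its call without AC-Green replicate 2 or TF18-Green replicate 2, and Solyc03g044790 also without AC-Green replicate 1 or TF18-Green replicate 3 (adjusted p 0.05 to 0.13 over these).

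The choice was repeated on 2 replicate numbers at a time, and the ratios were then read in the 6 libraries of the number left out, 1 per group. Without number 1 the rule chose 54 genes, without number 2 it chose 34 and without number 3 it chose 30. In the libraries not used, 21, 25 and 9 of these had an R(rin) of at least 4, or 38.9%, 73.5% and 30.0%. Among all genes of at least 10 RPKM in the rin-Pink library left out, the shares were 3.29%, 6.28% and 4.74%. The median R(rin) in the unused libraries was 3.48, 8.83 and 3.27.

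The other conditions of the rule carried over less. R in the wild type lay within 0.67 to 1.5 for 29 of the 54 genes, 12 of the 34 and 15 of the 30, beside 41.1%, 34.5% and 44.4% of all genes of that level. R(TF18) was at most 1.5 for 63.0%, 44.1% and 76.7%, where the shares over all genes were 88.0%, 87.1% and 89.3%. The full rule was met again in the unused libraries by 5, 3 and 1 genes, 9 of 118 choices in all. Among all genes of that level it was met by 24 of 11349, 51 of 11311 and 53 of 10645. In unused libraries the rise in rin was thus seen more often than among all genes, and so was the full rule. R(TF18) was within its bound less often than among all genes. R(AC) lay within its bounds for shares close to or somewhat above those of all genes. The 118 choices fell on 92 different genes, of which 39 were members, so these shares do not describe the members alone. The labels do not say whether libraries of different numbers came from different plants. The chosen genes had to reach 10 RPKM in the rin-Pink libraries used, and the genes beside them in the rin-Pink library left out. Solyc09g091670, for example, was chosen without number 1 and held 0.21 RPKM in rin-Pink replicate 1. The sets compared may thus differ in level, and the 1 RPKM added pulls R toward 1 in low genes. A ratio of single libraries is noisier than a ratio of means, and no test was made.

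**Figure D5:**
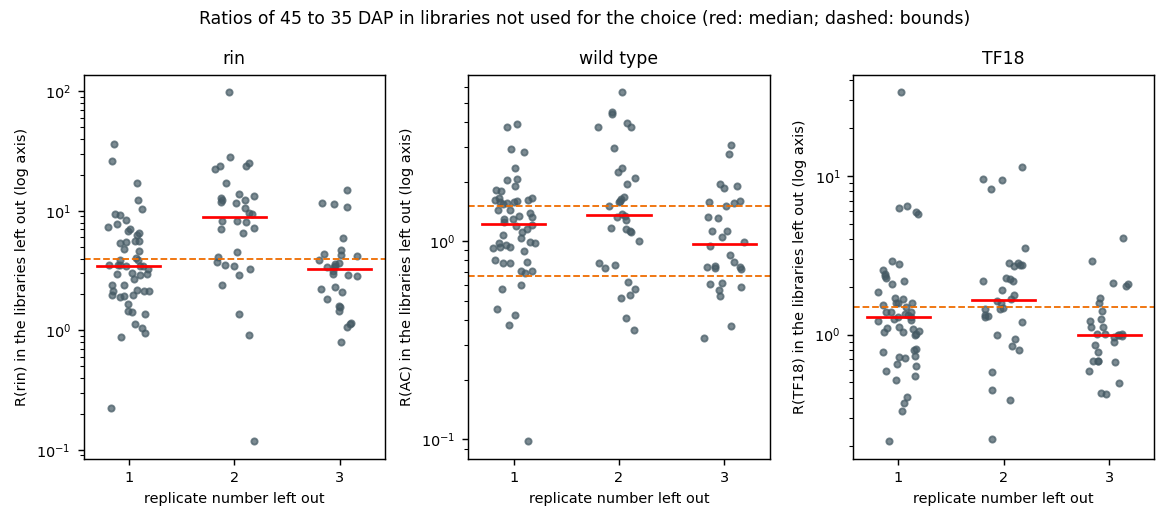
R in rin, the wild type and TF18 (log axes) for genes chosen on 2 replicate numbers, read in the libraries of the number left out (1 library per group). Red lines are medians and dashed lines the bounds of the rule. In rin most points lie above 2 (94 of 118), and in the wild type and TF18 they spread across the bounds.

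Some members sit close to a bound. Solyc11g010650 entered with an R(rin) of 4.03, and Solyc07g063940 missed it with 3.94. At the bounds on the wild type Solyc02g080510 was inside at 0.702 and Solyc08g082080 outside at 0.668, and Solyc09g065560 was inside at 1.496 and Solyc10g055200 outside at 1.563. Solyc03g093080 and Solyc07g007170 lay on the 2 sides of the bound on TF18, at 1.496 and 1.506. In level, Solyc10g017960 was inside at 10.2 RPKM and Solyc08g076870 outside at 9.92 RPKM. Only 2 members met the rule in each of the 18 settings that leave out 1 library, and the least stable ones did so in 13.

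The wild-type bound depends on the scaling. On the deposited scale the median gene fell in the wild type by 0.58 on the log2 scale between the ages, and with TMM-type scaling it fell by 0.17. With that scaling 23 of the 43 members had an R(AC) above 1.5, the median R(AC) of the members was 1.57, and 18 members still met the rule. The rule then gave 28 genes in all, and 242 with the wild type and rin exchanged, where the deposited values gave 43 and 74. Quantile normalization gave a median R(AC) of 1.68 and kept 10. The rise in rin was less affected, with a median R(rin) of 5.95 and 6.15 on these scales. A level course in the wild type thus held on the deposited scale and not with TMM-type scaling for 23 of the members.

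By the chromosome number written in the identifiers, the members lay on all 12 chromosomes. Chromosomes 2 and 6 held 6 members each (14.0%), beside 10.2% and 9.04% of all genes of at least 10 RPKM in rin-Pink. Chromosome 7 held 1 (2.33%), beside 7.49% of all genes of that level, and these shares were not tested. The coding lengths of the members, solved from the steps of the RPKM values, had a median of 789 bases, beside 1029 bases for all genes of at least 10 RPKM in rin-Pink. There were 2 pairs of members with neighbouring identifiers. Solyc06g083480 and Solyc06g083490 were both highest in rin-Pink replicate 2, at 40.9 and 41.7 RPKM, and below 10 RPKM in every other library. The next identifiers on each side, Solyc06g083470 and Solyc06g083500, had an R(rin) of 0.810 and 1.26. The means of Solyc06g083470 were only 0.56 RPKM in rin-Green and 0.26 RPKM in rin-Pink, below the 1 RPKM added in R, so its R says little.

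In the second pair, Solyc10g081970 held 134, 309 and 153 RPKM in rin-Pink and Solyc10g081980 held 103, 275 and 154 RPKM. Their rin-Green libraries held 29.5 to 47.7 RPKM and 28.9 to 51.7 RPKM, and their wild-type means were 44.1 and 47.7 RPKM at 35 DAP and 41.6 and 39.2 RPKM at 45 DAP. The pair thus followed each other in level and in library order within rin-Pink. Whether these neighbours share reads was not tested, since no sequence is at hand. Solyc10g081960 and Solyc10g081990 on either side were listed at 0 in all libraries.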

How the data were processed

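The authors deposited 1 table of RPKM values per gene and library, with columns named by sample title, per the file headers. CASAVA 1.8.1 and Bowtie2 are named in the submitters' processing notes. Build, annotation and counter: not given in the sources used here. The titles give each library's group and replicate number. Whole reads and coding lengths were solved from the RPKM steps for 28612 of 28612 genes with a value (tolerance 0.02 reads). Precision is limited by depth, with a median of 135 reads per member over the 3 AC-Pink libraries and 1303 over the 3 rin-Pink libraries.

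A gene was tested where 3 or more libraries held 1 RPKM or more (20658 genes, 42 members, and 41 members without the rin-Pink libraries). The test was that of limma 3.58.1 (R 4.3.3) on values of log2(RPKM + 1). The model held 6 group means over 18 libraries, a variance trend, and Benjamini-Hochberg adjustment over all genes. Fold changes on this scale understate those of low genes. Methods were tested on simulated data. Replicates differed by more than sampling noise (chi-square per gene 22.7 to 154). Same-numbered libraries of TF18-Green and AC-Green deviated together (correlations 0.284, 0.359 and 0.47), which rests on the data alone, and the labels give no meaning to the numbers. Plots used Python 3.11.15 with matplotlib 3.10.9.

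Members were named by a rule: the largest R(rin) with separated libraries, the highest level, the highest share of 1 library, the lowest R(TF18), the largest calls, the values next to each bound, and neighbours, with at most 2 in a direction, since no source pairs identifiers with names. The gene and marker lists could not be used for the same reason. The members and lists were chosen with earlier results of these data known.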

Additional observations from a re-analysis of the deposited data

How the results depend on the processing

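The rule gave 43 members, and 28 with TMM-type scaling (18 shared) and 24 with quantile normalization (10 shared). On the deposited values, group medians in place of means gave 35 (13 shared). A pseudocount of 5 RPKM gave 41 (21 shared), and 1 of 0.1 RPKM gave 34 (31 shared). There were 76 with an R(rin) of at least 3, 22 with at least 6, and 20 with a wild-type R between 0.8 and its inverse. Leaving out 1 library gave 26 to 57, with 26 without TF18-Green replicate 3 (24 shared) and 30 without rin-Pink replicate 2 (26 shared). For TF18 against the wild type at 45 DAP, TMM-type scaling gave 0 higher (all genes: 23.3%) and 8 lower (all genes: 17.8%). Quantile normalization gave 1 higher (all genes: 17.6%) and 9 lower (all genes: 12.9%). Leaving out 1 library gave 8 to 13 called. Of these, 4 to 8 were higher (all genes: 35.7% to 41.8%) and 3 to 6 lower (all genes: 5.83% to 6.38%). At 35 DAP library weights gave 17 called, with 8 higher (all genes: 4.72%) and 9 lower (all genes: 7.80%), above the 2.71% and 4.38% of all genes without weights. A pseudocount of 5 RPKM left 3 higher (all genes: 1.51%), and the 2 groups alone gave 2 lower (all genes: 3.57%). Leaving out 1 library gave 3 to 11 called, 2 to 8 higher (all genes: 1.30% to 3.44%) and 1 to 5 lower (all genes: 1.95% to 5.18%). The replicate block gave 7 higher (all genes: 40.25%) and 5 lower (all genes: 6.21%) at 45 DAP. At 35 DAP it gave 6 higher (all genes: 2.55%) and 4 lower (all genes: 3.85%). For rin at 35 DAP it gave 0 (all genes: 0.053% higher and 0.029% lower). The counts with the block were within 1.5 times those without it. Same-numbered libraries of TF18-Pink and AC-Pink correlated at 0.206, 0.12 and -0.039, and those of rin-Green and AC-Green at -0.147, -0.038 and -0.235. No member was called for rin at 35 DAP under any alternative. The share of genes chosen on 2 replicate numbers with an R(rin) of at least 4 in the third was 46.6%, with 37.7% at a pseudocount of 5 RPKM and 51.3% with TMM-type scaling. Of the 20 single calls in TF18, 6 held under all 27 alternatives and none changed sign. The cause of these shifts was not tested.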
